A study of Homo sapiens with 6 samples.

Results

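The tetraspanins described here are 10 genes, CD9, CD63, CD81, CD82, CD151, TSPAN1, TSPAN3, TSPAN4, TSPAN8 and TSPAN15, looked up by symbol among the 23180 gene symbols with counts, all 10 of which were found. For each gene, the RefSeq transcript that held most counts over the 6 samples stood for the gene. Human A549 cells, an established lung adenocarcinoma line with the genotype labelled WT at passage 11, were transfected with 65 nM of siControl or of siKMT9α#1 and harvested 3 days later, with 3 biological replicates in each group. siControl is a control siRNA, and siKMT9α#1 targets N6AMT1, the gene of the KMT9α subunit of the histone methyltransferase KMT9. The labels name the siRNA's target, and the number of the siRNA comes from the methods. The comparison asks which mRNAs differ after KMT9α knock-down in 1 cell line with 1 siRNA against KMT9α.

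Tetraspanins span the membrane with several helices and carry a small and a large extracellular loop, the larger held together by disulfide bonds. They act by binding each other and partner proteins such as integrins, immunoglobulin superfamily proteins and metalloproteinases, and so set where those partners sit and travel. CD9, CD63 and CD81 are widely used as markers of extracellular vesicles, and in lung epithelium and its tumors tetraspanins are studied for their part in adhesion, migration and vesicle release.

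The totals over 1 transcript per gene were 13740097 to 19832396 counts per sample. KMT9α mRNA (N6AMT1) was lower in all 3 siKMT9α#1 samples, falling from 10.8 ± 0.621 CPM in the controls to 3.15 ± 0.246 CPM (SD over 3 samples). CPM are here the counts scaled to the size of the library with edgeR's TMM factors. TRMT112, the other KMT9 subunit, had a log2 fold change of -0.38. In these bulk samples, a lower level per cell cannot be told apart from fewer cells that express a gene. Of the 6 epithelial markers, KRT7, KRT8 and KRT18 were abundant, with KRT18 at 2041 CPM with siControl, whereas EPCAM and CDH1 stood at 3.86 and 3.39 CPM. The summed level of the 6 markers was 4402 to 4886 CPM with siControl and 2943 to 3130.4 CPM with siKMT9α#1. Of 10 markers of leukocytes, endothelium, fibroblasts and alveolar type II cells, 7 had fewer than 10 counts in every sample, among them PTPRC, PECAM1, SFTPB and SFTPC, and CD3E was at 0. Their summed level was 82.4 to 89.8 CPM with siControl and 30.1 to 31.7 CPM with siKMT9α#1, most of it CD68 (80.6 and 27.9 CPM), a lysosomal protein that epithelial cells also make. The part of these markers in the results was not tested.

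The target site of siKMT9α#1 in N6AMT1 and the 3′ UTR sites for its seed in the tetraspanins are shown because an siRNA can also act on transcripts that match only the seed of its guide strand. Sequences were read from GRCh37, the build that hg19 names, on the strand of the gene, and the capitals mark the 7-mer ACATTCA that pairs with guide bases 2 to 8.
N6AMT1 target site, chr21:30254500-30254524, minus strand, ahead of the 3′ UTR: acgctgtaacaaagttcACATTCAa
TSPAN15 3′ UTR, chr10:71267273-71267297, plus strand: tttacgtgatttttgtaACATTCAt
TSPAN3 3′ UTR, chr15:77334155-77334179, minus strand: aagaagttgccttgagtACATTCAc
The 7-mer, searched on the transcript strand only, stood once in the annotated 3′ UTR of TSPAN15 and once in that of TSPAN3, and in none of the other 8 members. Over all tested genes with an annotated 3′ UTR, 14.0% of 12863 held it. On the log2 scale, the median change of those genes was -0.17, beside 0.00 in genes that lack the 7-mer, a description with no test. Of the binding partners listed, ITGA6 held it at 2 places and CD44 and EPCAM at 1 each, with log2 fold changes of -1.17, 1.22 and -2.76. Beside the 25-base N6AMT1 site, the TSPAN15 stretch had 11 equal bases and the TSPAN3 stretch 13. These counts include the 7 bases of the 7-mer, which are equal because the search was for them. The TSPAN15 site lies within the deposited span of the transcript counted, at base 556 of a 3′ UTR of 688 bases. The TSPAN3 site lies outside the deposited span, at base 5015 of an annotated 3′ UTR of 5432 bases. The 7-mer ACGCAAA, which pairs with the same bases of the siControl guide, was found in none of the 10 annotated 3′ UTRs and in 1.92% of all. Genes that held ACGCAAA had a median log2 fold change of 0.15, beside -0.02 in genes that lack it, again with no test.

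The 10 tetraspanins covered a wide range of levels in A549 cells. Per kilobase of transcript, CD63, a tetraspanin of late endosomes and lysosomes, was the most abundant with siControl, at 1374 ± 92.2 CPM per kilobase (SD, n = 3). CD151 followed at 274 ± 11.3, CD9 at 189.8 ± 9.39, CD81 at 122 ± 4.22 and TSPAN3 at 98.5 ± 7.09 CPM per kilobase. TSPAN15 stood at 29.1 ± 1.42 and TSPAN4 at 20.0 ± 0.721 CPM per kilobase, and CD82, TSPAN8 and TSPAN1 at 1.92 ± 0.262, 0.658 ± 0.0833 and 0.555 ± 0.200. Of all tested genes, 0.267% had a higher level per kilobase than CD63, 4.73% a higher level than CD81 and 76.5% a higher level than CD82. Neighbours in this order did not overlap between the siControl samples, other than TSPAN8 and TSPAN1.

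**Figure D1:**
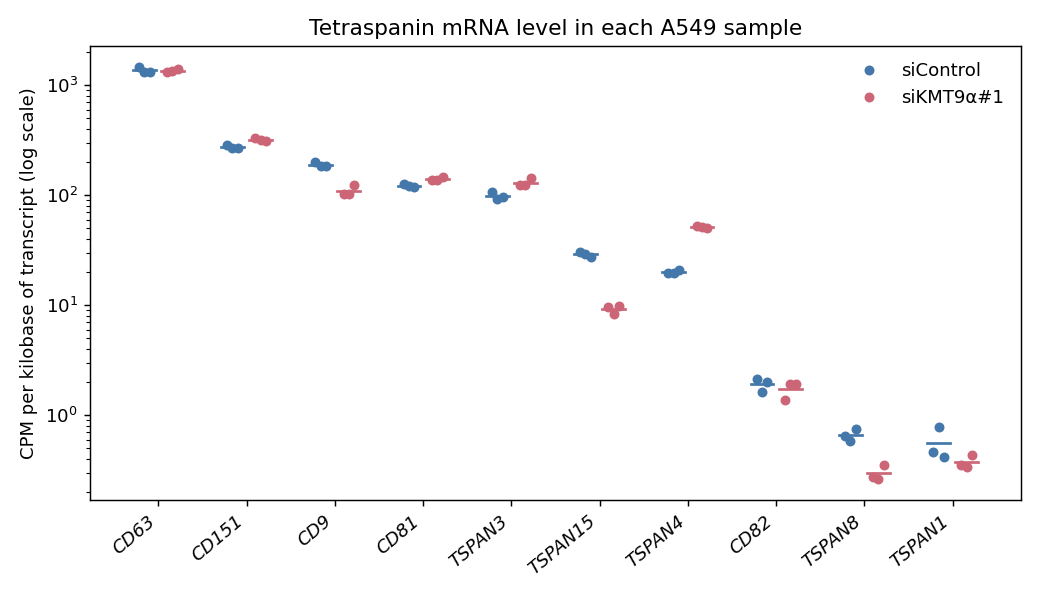
Level of each tetraspanin in CPM per kilobase of transcript on a log scale (vertical axis) for each gene (horizontal axis, ordered by the siControl mean), with a point per sample and a bar at the mean of each group of 3. CD9 and TSPAN15 sit lower and TSPAN4 sits higher in the siKMT9α#1 samples, and CD63 overlaps between the groups.

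The order of the levels changed after KMT9α knock-down. CD9 went from the third to the fifth place, below CD81 and TSPAN3, whose ranges overlapped, as did those of TSPAN3 and CD9. TSPAN4, at 51.2 ± 0.851 CPM per kilobase, passed TSPAN15, at 9.30 ± 0.898 (SD, n = 3 each). The summed level of the 10 members was 2110.5 ± 125 in the controls and 2123 ± 61.7 after knock-down (SD over 3 samples), and the groups overlapped. CD63 made up 65.1% ± 0.509 in the controls and 64.1% ± 0.361 after knock-down (SD over 3 samples) of that sum. CD9 made up 9.00% ± 0.0876 in the controls and 5.16% ± 0.409 after knock-down (SD over 3 samples), without overlap between the groups. For values of this kind, 3 samples against 3 give an exact permutation p of 0.1 at the lowest, so no call was made on them.

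Of the 10 members, 7 passed an adjusted p of 0.05, with TSPAN4, TSPAN3, CD151 and CD81 higher and TSPAN15, CD9 and TSPAN8 lower after knock-down (4 and 3 genes), in edgeR's quasi-likelihood test with adjustment over the 13877 genes tested. Over all genes tested, 75.6% passed, 37.1% in the higher and 38.5% in the lower direction, so the share of members called was near the background. The threshold that the study used was P below 1e-08 and a log2 fold change above 0.26 in size, without naming which edgeR test gave P. With the quasi-likelihood P, 3 of the 10 passed that threshold, TSPAN4, TSPAN15 and CD9. Of all genes, 24.2% passed it, 13.5% in the higher and 10.7% in the lower direction. With the P of edgeR's likelihood-ratio or exact test, 4 members passed, TSPAN3 being added. Of the 13877 genes, 5962 passed with the likelihood-ratio P and 5924 with the exact P. A fold above 2 was fitted for 3 of the 10 (TSPAN15, TSPAN4 and TSPAN8), against 20.4% of all genes. In 7 members the 3 controls and the 3 knock-down samples shared no range, against 77.0% of all genes. The median log2 fold change of the members was -0.07, against -0.01 over all genes. That median had no stable sign, at 0.11 with GC and length offsets, 0.08 with at least 10 counts in every sample, 0.02 without siControl replicate 1 and 0.01 without siKMT9α#1 replicate 1. The library size alone as scaling moved the median of all genes by -0.11 on the log2 scale. With it, 3 members were called higher and 4 lower, beside 4359 and 6212 of the 13877 genes. With offsets that take out each library's GC and length trend, called GC and length offsets here, 5 members were called higher and 2 lower. Those offsets called 5164 of all genes higher and 5488 lower. Of the members, TSPAN8 passed the filter on low counts through the siControl samples alone, and TSPAN1 through these and 1 siKMT9α#1 sample, so TSPAN8 entered the test only because it was higher with siControl, and its direction is no separate observation.

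**Figure D2:**
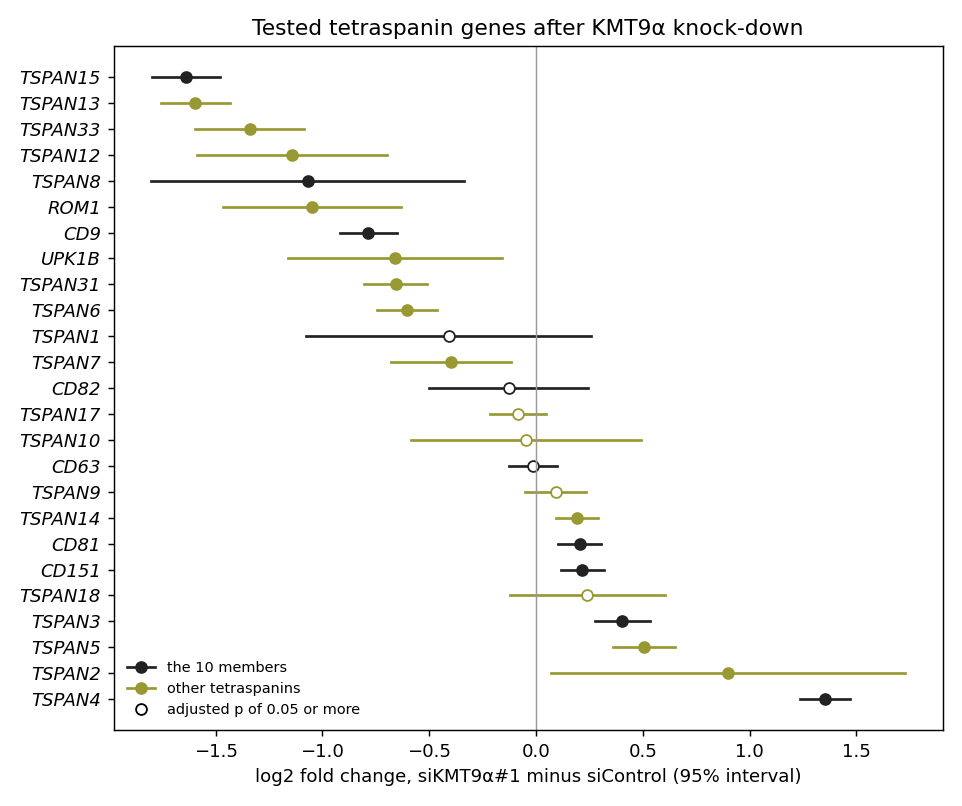
Log2 fold change of siKMT9α#1 minus siControl (horizontal axis) with its 95% interval for each of the 25 tetraspanin genes tested, the 10 members in black and 15 others in olive, with open circles where the adjusted p was 0.05 or more. TSPAN15 lies at the low end and TSPAN4 at the high end, at -1.64 and 1.35.

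TSPAN15 had the largest change of the 10 members in size. It belongs to the TspanC8 subgroup, whose members have 8 cysteines in the large loop and bind the metalloproteinase ADAM10, escorting it out of the endoplasmic reticulum. TSPAN15, listed as NM_012339 on chromosome 10 from 71211226 to 71267423 of hg19 in an annotated protein-coding gene of 8 exons, was at 51.3, 49.0 and 46.6 CPM across the control samples and 16.3, 13.9 and 16.7 CPM across the knock-down samples. All 3 knock-down samples lay below all 3 controls. Its level fell 3.11-fold, a log2 fold change of -1.64 ± 0.08 (SE) at an adjusted p of 2.41e-13, and 7.10% of all tested genes had a larger change in size. It was -1.74 to -1.45 over all settings tried. This is the member whose counted transcript spans a 7-mer for the siRNA's seed, and the part of that site in the change was not tested.

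Its partner ADAM10, which sheds the outer part of surface proteins such as Notch receptors and cadherins, moved the other way. ADAM10 was at 60.9, 54.0 and 47.5 CPM across the control samples and 223, 227 and 252 CPM across the knock-down samples, a 4.33-fold higher level with a log2 fold change of 2.11 ± 0.07 (SE) at an adjusted p of 2.96e-15. The other 5 TspanC8 genes, a subgroup formed after the values were seen, split between higher and lower. TSPAN33 fell 2.53-fold, from 9.36 ± 0.259 CPM in the controls to 3.73 ± 0.320 CPM (SD over 3 samples). TSPAN5 rose from 28.7 ± 2.47 CPM in the controls to 40.8 ± 1.88 CPM (SD over 3 samples), a log2 fold change of 0.50. TSPAN14, the most abundant of the subgroup, went from 315 ± 8.61 CPM in the controls to 359.9 ± 10.9 CPM (SD over 3 samples), a log2 fold change of 0.19 that passed the test as reported, did not at 0.09 with the library size alone, and turned to -0.05 with GC and length offsets. TSPAN17 (-0.08) and TSPAN10 (-0.05) did not pass, although TSPAN17 did at -0.19 with the library size alone.

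Shares within each library do not depend on the scaling between libraries, though GC and length trends can still move them. TSPAN15 made up 24.2% ± 0.907 in the controls and 8.52% ± 0.616 after knock-down (SD over 3 samples) of the summed TspanC8 level per kilobase. TSPAN14 made up 47.0% ± 0.459 in the controls and 59.4% ± 0.561 after knock-down (SD over 3 samples). The groups overlapped in neither share, and since the shares have 1 sum, a lower TSPAN15 raises the share of TSPAN14, whose own level was 56.6 ± 1.55 and 64.7 ± 1.96 CPM per kilobase. The ratio of TSPAN15 to TSPAN14 per kilobase was 0.514 ± 0.0151 in the controls and 0.143 ± 0.00976 after knock-down (SD over 3 samples). The summed level of the 6 genes was 120.3 ± 2.26 in the controls and 109 ± 2.82 after knock-down (SD over 3 samples) CPM per kilobase.

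**Figure D3:**
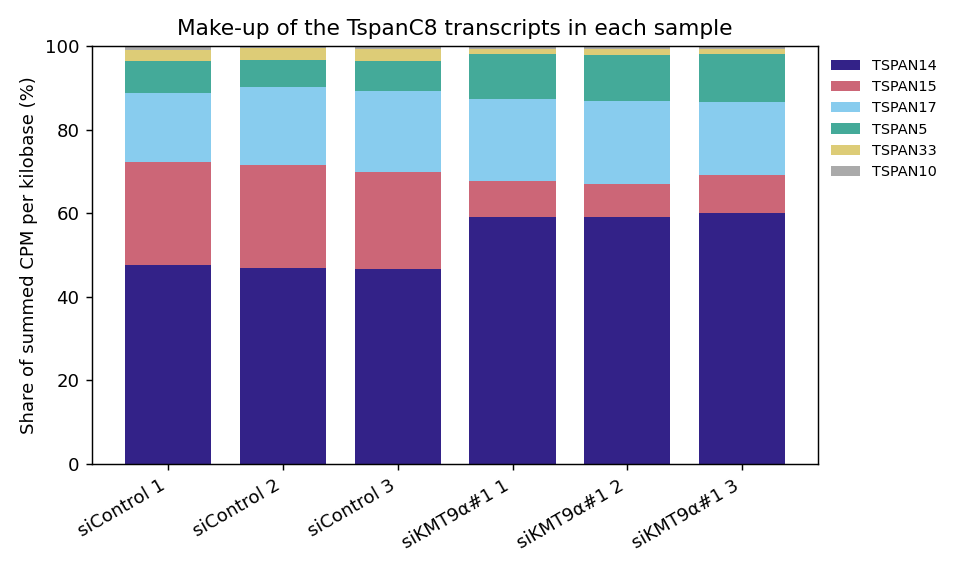
Share of the summed CPM per kilobase (vertical axis, percent) that each of the 6 TspanC8 genes held in each of the 6 samples (horizontal axis). The TSPAN15 part is narrower and the TSPAN14 part wider in every siKMT9α#1 sample than in any siControl sample.

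TSPAN4, a tetraspanin known from migrasomes, the vesicles that migrating cells leave on their retraction fibers, rose 2.55-fold. TSPAN4, listed as NM_001025234 on chromosome 11 from 844081 to 867116, was at 27.7, 27.6 and 29.4 CPM across the control samples and 73.3, 72.3 and 71.0 CPM across the knock-down samples. Each knock-down sample was above every control sample, with a log2 fold change of 1.35 ± 0.06 (SE) at an adjusted p of 6.15e-14 and a 95% interval of 1.23 to 1.47. The table lists 7 transcripts of TSPAN4 with nearly equal counts, the smallest with 94.6% of the count of the largest, and fitted one by one they ran from 1.35 to 1.37. With GC and length offsets the log2 fold change was 1.61.

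CD151 lies next to TSPAN4 on chromosome 11, 5245 bases away with POLR2L between them. CD151, which binds laminin-binding integrins tightly and links them to the tetraspanin network, is listed as NM_004357 on chromosome 11 from 832952 to 838835. It was at 440.0, 409.7 and 410.3 CPM across the control samples and 504, 486 and 475 CPM across the knock-down samples. The groups did not overlap, and the difference of 1.16-fold was small, with a log2 fold change of 0.22 ± 0.05 (SE) at an adjusted p of 0.000475. It was 0.11 with the library size alone and 0.44 with GC and length offsets, and its adjusted p was 0.725 in edgeR's test against a log2 fold change of 0.26. Within each library, the ratio of TSPAN4 to CD151 per kilobase was 0.0732 ± 0.00471 in the controls and 0.161 ± 0.00219 after knock-down (SD over 3 samples), without overlap.

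The integrin chains that CD151 binds moved in different directions. ITGA3, the α3 chain, was at 444, 405 and 439 CPM across the control samples and 1199, 1176 and 1213 CPM across the knock-down samples, a 2.78-fold higher level (log2 fold change 1.48). ITGA6, the α6 chain, fell 2.24-fold, from 149.6 ± 15.1 CPM in the controls to 66.4 ± 7.12 CPM (SD over 3 samples), a log2 fold change of -1.17. Both passed the study's threshold. ITGB1, the shared β1 chain, had a log2 fold change of 0.18 that was 0.07 and no longer passed with the library size alone. ITGB4, the β4 chain that pairs with α6, was -0.0035 (95% interval -0.15 to 0.14) and did not pass the test as reported, though with GC and length offsets it was -0.15 and passed.

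CD9 and CD81 are close relatives that bind the same immunoglobulin superfamily partners, and their mRNAs moved apart. CD9, listed as NM_001769 on chromosome 12 from 6309482 to 6347437, was at 261, 239 and 240.3 CPM across the control samples and 133, 134 and 161 CPM across the knock-down samples. The highest knock-down sample was replicate 3, and it lay below the lowest control. CD9 fell 1.72-fold, a log2 fold change of -0.79 ± 0.06 (SE) at an adjusted p of 1.26e-09. CD81, listed as NM_004356 on chromosome 11 from 2398547 to 2418649, was at 188, 179 and 176 CPM across the control samples and 205, 202 and 218 CPM across the knock-down samples. The groups did not overlap, with a log2 fold change of 0.20 ± 0.05 (SE) at an adjusted p of 0.000928. For CD81 the log2 fold change was 0.10 (adjusted p = 0.0718) in edgeR's quasi-likelihood test with the library size alone and 0.44 with GC and length offsets, and its adjusted p was 0.810 in edgeR's test against 0.26. Within each library, the ratio of CD9 to CD81 per kilobase was 1.55 ± 0.0275 in the controls and 0.779 ± 0.0534 after knock-down (SD over 3 samples), so that CD9 was above CD81 in each control and below it in each knock-down sample. The ratio of CD151 to CD81 was 2.24 ± 0.0220 in the controls and 2.27 ± 0.143 after knock-down (SD over 3 samples), and there the groups overlapped.

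The partners that CD9 and CD81 share also split. PTGFRN (EWI-F) rose from 39.7 ± 4.37 CPM in the controls to 56.2 ± 4.05 CPM (SD over 3 samples), a log2 fold change of 0.50 that was 0.22 with GC and length offsets. IGSF8 (EWI-2) fell from 17.6 ± 1.18 CPM in the controls to 12.8 ± 0.731 CPM (SD over 3 samples), a log2 fold change of -0.44. HBEGF, a growth factor precursor that CD9 binds at the surface, rose from 7.60 ± 0.988 CPM in the controls to 19.2 ± 0.444 CPM (SD over 3 samples), a log2 change of 1.33. CLDN1, a tight junction claudin, went from 167 ± 13.1 CPM in the controls to 659 ± 25.02 CPM (SD over 3 samples), a log2 change of 1.98. EPCAM, an epithelial adhesion protein, went from 3.86 ± 0.395 CPM in the controls to 0.593 ± 0.145 CPM (SD over 3 samples), a log2 change of -2.76. EPCAM had 10, 6.5 and 10.5 counts across the knock-down samples. It passed the filter on low counts mainly through the siControl samples, where it was higher, so its direction is partly tied to that filter. IFITM1, a CD81 partner in leukocytes, had too few counts to be tested, at most 7.5 in any sample.

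CD63, the most abundant member, did not pass the test. CD63, listed as NM_001780 on chromosome 12 from 56119230 to 56122910, was at 1483, 1323 and 1323 CPM across the control samples and 1329.8, 1349 and 1409.8 CPM across the knock-down samples. The groups overlapped, with a log2 fold change of -0.01, a 95% interval of -0.13 to 0.10 and an adjusted p of 0.822 in edgeR's quasi-likelihood test. This value depended on the scaling, at -0.12 (adjusted p = 0.0471) in edgeR with the library size alone and 0.16 (adjusted p = 0.00724) in edgeR with GC and length offsets. TIMP1, a protease inhibitor that binds CD63 at the surface, was at 130.5, 119.7 and 126 CPM across the control samples and 126, 122 and 123 CPM across the knock-down samples, with a log2 fold change of -0.02 that became -0.13 with the library size alone and 0.22 with GC and length offsets, both past the test. SDCBP (syntenin), the adaptor that binds the tail of CD63 and takes part in vesicle formation, rose from 528 ± 13.4 CPM in the controls to 781 ± 31.3 CPM (SD over 3 samples), a log2 fold change of 0.56.

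TSPAN3, a widely expressed tetraspanin, is listed as NM_005724 on chromosome 15 from 77336360 to 77363570. It was at 408, 355 and 371 CPM across the control samples and 474, 480.3 and 548 CPM across the knock-down samples. The groups did not overlap, and TSPAN3 rose 1.32-fold, a log2 fold change of 0.40 ± 0.06 (SE) at an adjusted p of 6.46e-06. With GC and length offsets the log2 fold change was 0.24. Within each library, the ratio of TSPAN3 to CD63 per kilobase was 0.0717 ± 0.00159 in the controls and 0.0958 ± 0.00492 after knock-down (SD over 3 samples), without overlap.

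CD82, TSPAN1 and TSPAN8 were low in A549 cells. CD82 (KAI1), known as a suppressor of metastasis, is listed as NM_002231 on chromosome 11 from 44587141 to 44641315 and was at 3.56, 2.72 and 3.35 CPM across the control samples and 2.31, 3.22 and 3.22 CPM across the knock-down samples. The groups overlapped, and the log2 fold change of -0.13 had a 95% interval of -0.50 to 0.24, so that changes of modest size in either direction were not detectable at this depth. TSPAN1, of secretory epithelia, listed as NM_005727 on chromosome 1 from 46640749 to 46651634, had 14, 20.5 and 13 counts across the control samples and 7.5, 7.5 and 13.5 counts across the knock-down samples. Its groups overlapped, with a log2 fold change of -0.41 (95% interval -1.08 to 0.26), and without siControl replicate 2 it was -0.11. TSPAN8, of gut and other endodermal epithelia, listed as NM_004616 on chromosome 12 from 71518877 to 71551779, had 13.5, 10.5 and 16 counts across the control samples and 4, 4 and 7.5 counts across the knock-down samples. The groups did not overlap, with a log2 fold change of -1.07 ± 0.35 (SE) at an adjusted p of 0.0116 in edgeR's quasi-likelihood test, but its adjusted p was 0.132 in DESeq2 and 0.0577 in edgeR with GC and length offsets.

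**Figure D4:**
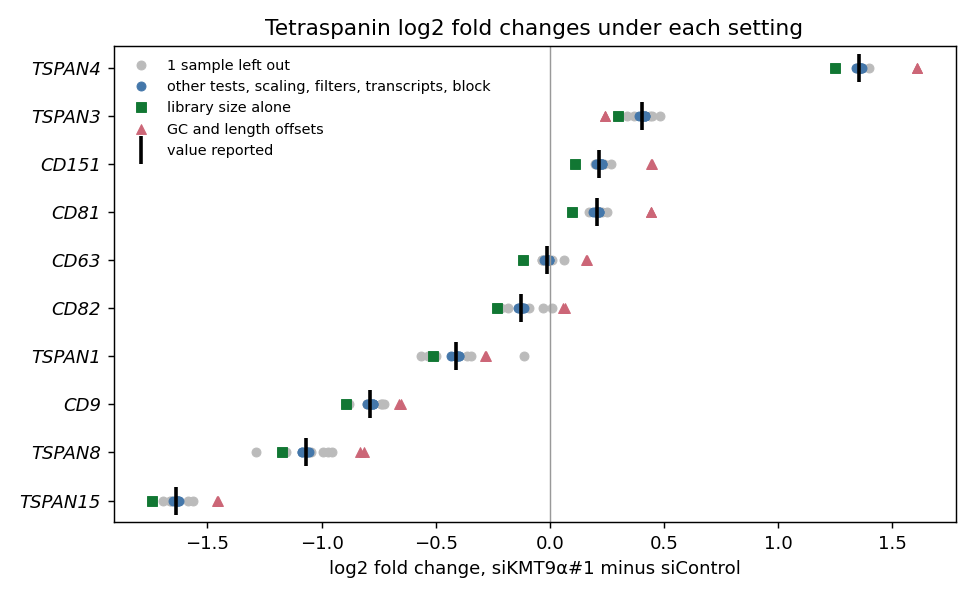
Log2 fold change of siKMT9α#1 minus siControl (horizontal axis) of each of the 10 tetraspanins under every setting tried, with a black bar at the value reported, green squares for the library size alone and red triangles for GC and length offsets. CD63 and CD82 fall on both sides of 0, and the other 8 genes stay on 1 side.

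The human family holds 33 tetraspanin genes, and of the 23 outside the 10 members 15 passed the filter on low counts. Of these, 3 passed the test as higher and 8 as lower, a share near the 75.6% of all genes called (37.1% higher and 38.5% lower), with a median log2 fold change of -0.40. With the library size alone, 1 was higher and 9 were lower, beside 4359 and 6212 of all genes. With GC and length offsets 2 were higher and 8 lower, beside 5164 and 5488. TSPAN2, among the 3 called higher, had 15.5, 8 and 3 counts across the controls and 14, 10 and 19 across the knock-down samples. The groups overlapped, and its adjusted p was 0.0469 in edgeR's quasi-likelihood test. It passed the filter on low counts mainly through the siKMT9α#1 samples, where it was higher. Its direction is therefore partly tied to that filter. TSPAN13 was at 139.8, 128 and 119.6 CPM across the control samples and 40.4, 37.9 and 49.0 CPM across the knock-down samples, without overlap. It fell 3.02-fold, a log2 fold change of -1.59 ± 0.08 (SE) at an adjusted p of 4.95e-13, and TSPAN33 was the only other one of the 15 past the study's threshold. TSPAN6 fell from 71.1 ± 7.02 CPM in the controls to 46.8 ± 2.28 CPM (SD over 3 samples) and TSPAN31 from 40.5 ± 1.28 CPM in the controls to 25.5 ± 2.29 CPM (SD over 3 samples). The deposited span of TSPAN31 overlaps that of CDK4. TSPAN9, a tetraspanin of platelets, went from 32.97 ± 1.43 CPM in the controls to 35.1 ± 2.67 CPM (SD over 3 samples), a log2 fold change of 0.09 that did not pass and was -0.01 with the library size alone. The 8 genes that were not tested had at most 16 counts in any sample, among them the leukocyte tetraspanins CD37 and CD53 and the retinal PRPH2. The 10 members held 89.9% ± 0.132 in the controls and 92.4% ± 0.226 after knock-down (SD over 3 samples) of the level per kilobase summed over the 33 genes.

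Of 17 listed binding partners of tetraspanins, 15 were tested, of which 10 passed as higher and 3 as lower, beside 37.1% and 38.5% of all genes, with a median log2 fold change of 0.50. With the library size alone, 9 were higher and 4 lower, beside 4359 and 6212 of all genes. With GC and length offsets 11 partners were higher and 4 lower, with their median at 0.23, beside 5164 and 5488 of all genes. With at least 10 counts in every sample, which leaves out EPCAM, 10 were higher and 2 lower. The list was chosen with earlier results of these data known, so these shares are a description and no test. SDCBP is counted again among the vesicle genes and CD44 among the ADAM10 substrates, so the lists are not separate. The partners not yet given include BSG (basigin), an inducer of matrix metalloproteinases, which was at 177, 170.0 and 173 CPM across the control samples and 615, 597 and 615 CPM across the knock-down samples. BSG rose 3.52-fold, a log2 fold change of 1.81 ± 0.05 (SE) at an adjusted p of 7.47e-17. CD44, the hyaluronan receptor, rose 2.33-fold, from 249.5 ± 20.2 CPM in the controls to 581 ± 27.2 CPM (SD over 3 samples). ADAM17, a sheddase related to ADAM10, had a log2 fold change of 0.29, which was 0.18 with the library size alone, beside 2.11 for ADAM10.

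**Figure D5:**
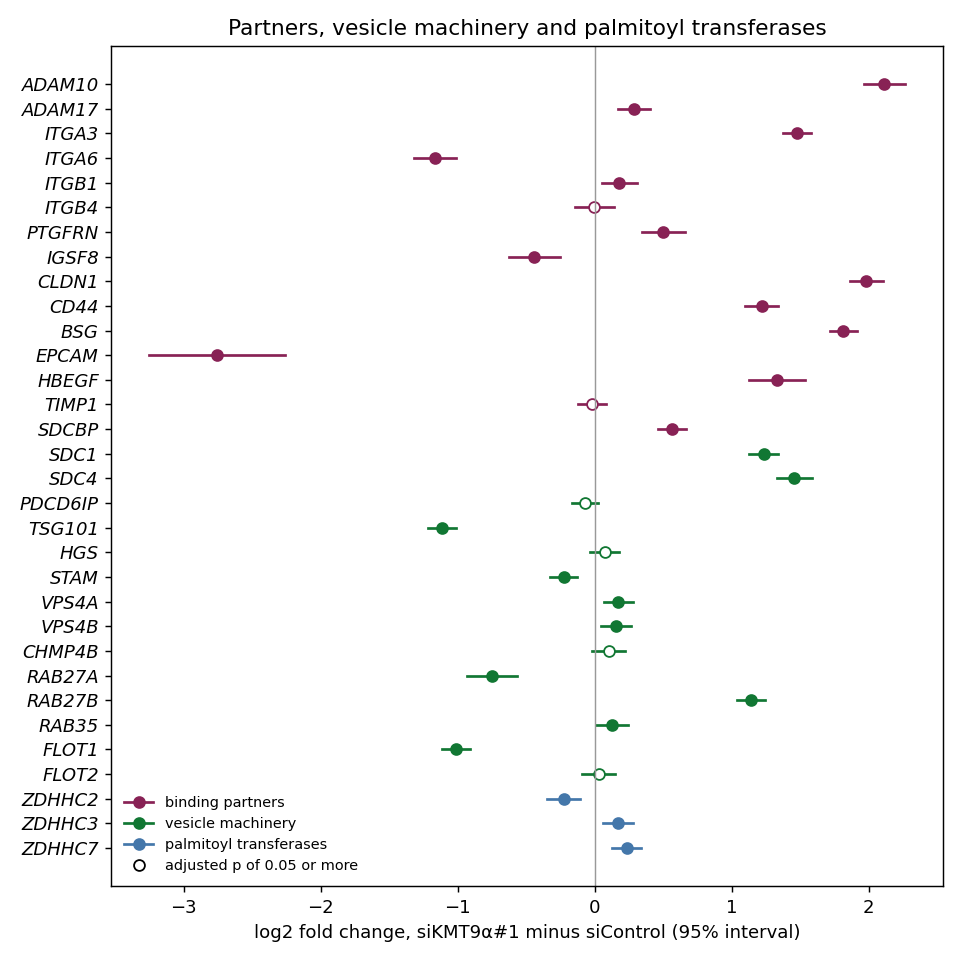
Log2 fold change of siKMT9α#1 minus siControl (horizontal axis) with its 95% interval for the tested binding partners, extracellular vesicle genes and palmitoyl transferases, with open circles where the adjusted p was 0.05 or more. ADAM10 has the highest value, 2.11, and EPCAM, with at most 10.5 counts in a knock-down sample, the lowest, -2.76.

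Of 15 genes of the extracellular vesicle machinery, all tested, 7 passed as higher and 4 as lower, near the 75.6% called among all genes, with a median log2 fold change of 0.10. With the library size alone, 4 were higher and 5 lower, beside 4359 and 6212 of all genes. With GC and length offsets 9 were higher and 5 lower, beside 5164 and 5488. SDC1 and SDC4, the syndecans that syntenin binds, rose 2.35-fold and 2.75-fold, from 98.0 ± 4.55 CPM in the controls to 231 ± 7.64 CPM (SD over 3 samples) for SDC1. TSG101, an ESCRT-I subunit that sorts cargo into intraluminal vesicles, was at 105, 107 and 105 CPM across the control samples and 48.1, 49.7 and 48.5 CPM across the knock-down samples. It fell 2.17-fold, a log2 fold change of -1.11. The RAB27 GTPases, which dock endosomes that release exosomes, split, with RAB27B at 1.14 and RAB27A at -0.75. FLOT1, a lipid raft protein, was at -1.01, while FLOT2 was at 0.03 and did not pass. PDCD6IP (ALIX), at -0.07, did not pass as reported and did at -0.18 with the library size alone.

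Tetraspanins are modified with palmitate, which helps them associate with each other. Of the palmitoyl transferases, ZDHHC2, which acts on CD9 and CD151, had a log2 fold change of -0.23. ZDHHC3 was at 0.17 and ZDHHC7 at 0.23. All 3 passed the test as reported, beside 75.6% of all genes. None of the 3 passed against a log2 fold change of 0.26, beside 7761 of the 13877 genes. ZDHHC7 was 0.13 with the library size alone. ZDHHC3 was 0.06 and lost its call with the library size alone, and it was called lower, at -0.32, with GC and length offsets. There 1 of the 3 was higher and 2 were lower, beside 5164 and 5488 of all genes.

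The 10 genes lie on 5 chromosomes, with CD151, TSPAN4, CD81 and CD82 on chromosome 11 and CD9, CD63 and TSPAN8 on chromosome 12. None of their deposited spans overlapped that of another gene in the table. The annotation places transcripts of the opposite strand over CD63, CD81, CD82, TSPAN3 and TSPAN4 (long noncoding RNAs), over CD151 (POLR2L), over TSPAN1 (P3R3URF and its PIK3R3 readthrough) and over CD9 (a Y RNA). Over TSPAN3 it also places a long noncoding RNA and another transcript of the same strand. Whether the counting used the strand is not stated, so reads of the opposite-strand partners cannot be told apart from those of the tetraspanins. Reads of the same-strand transcripts over TSPAN3 could not be told apart by strand in any case.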

How the data were processed

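RNA-Seq of 6 A549 samples was analysed. Per the labels and methods, the authors aligned reads to hg19 with STAR and used HOMER to count them on RefSeq transcripts, and the deposited estimated counts are not normalized and come in steps of 0.5. The authors also deposited an edgeR fold change per transcript with its p-value, raw and adjusted, which were not used. Versions and strandedness of the counting are not given in the sources used here.

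Counts of 1 transcript per gene were rounded and fitted across all genes with edgeR 4.0.16 in R 4.3.3 (TMM, filterByExpr, two-sided quasi-likelihood test, Benjamini-Hochberg adjustment), with DESeq2 1.42.0 among 19 alternatives. Totals of 13740097 to 19832396 counts per sample set the precision. CPM per kilobase used the deposited transcript length. Intervals are at 95%. On simulated counts, 198 of 200 genes changed by 1 on the log2 scale were called, and so were 8 unchanged genes, of 13857 tested. The changed genes were not low in counts, and far fewer changed than were called in the data. The simulation is therefore no check on low-count genes or on calls that depend on the scaling. The labels do not say whether replicate numbers pair the samples, which were fitted as unpaired, with a replicate block among the alternatives.

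The 10 members and the gene lists were chosen with earlier results of these data known. Named genes were the members, the KMT9 subunits, other tetraspanins past the study's threshold or at 10 CPM or more, the genes of other lists past that threshold (at most 8 a list), and direct partners of members. Any other gene, and the TspanC8 grouping, was picked after its values were seen.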

Additional observations from a re-analysis of the deposited data

How the results depend on the processing

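Over the 13 alternatives that kept all 6 samples and the 6 that left out 1 sample each, CD9, TSPAN3, TSPAN4 and TSPAN15 kept their direction and their call. Leaving out 1 sample kept 7 members called each time. CD81 and CD151 lost their calls in edgeR's test against a log2 fold change of 0.26, CD81 also with the library size alone, and TSPAN8 in DESeq2 and with GC and length offsets. With a minimum of 10 counts in every sample, TSPAN1 and TSPAN8 could not be fitted. The log2 fold change of CD63 turned to 0.159 with GC and length offsets and to 0.162 with the replicate block added, and that of CD82 to 0.0646 and 0.0590. CD63 was -0.0364 to 0.0609 and CD82 -0.226 to 0.00790 when 1 sample was left out, with CD63 above 0 without siControl replicate 1 or siKMT9α#1 replicate 1 and CD82 above 0 without siKMT9α#1 replicate 1. The cause of these turns was not tested.

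Members past the study's threshold rose from 3 to 5 with GC and length offsets, with and without the replicate block, and were 2 to 4 when 1 sample was left out. Over all genes, those past it also rose, from 3357 to 4392 with the offsets and to 5485 with the block added. They were 2326 to 4085 when 1 sample was left out. Members past it were 4, with TSPAN3 added, in edgeR's likelihood-ratio and exact tests, in DESeq2 and with no filter on low counts. Of the other tetraspanins, 2 passed that threshold as reported, 5 in edgeR's likelihood-ratio test, 5 in edgeR's exact test, 4 in DESeq2, 4 with the library size alone, 6 with no filter on low counts, 1 with the replicate block and 4 with GC and length offsets and the block. They were 1 to 5 when 1 sample was left out, with 5 without siControl replicate 1 and 1 without siKMT9α#1 replicate 1 or 2. Against a log2 fold change of 0.26, 0 of 3 palmitoyl transferases and 7 of 15 vesicle genes were called, beside 7761 of the 13877 genes. Of the 13877 genes, 3357 passed the study's threshold, 5962 in the likelihood-ratio test and 5924 in the exact test. Those past it were 3378 with the library size alone, 2342 with the replicate block and 5485 with GC and length offsets and the block. With no filter 6070 of 18751 genes passed it, and in DESeq2 4621 of 18751.

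Deviations from the group means did not run together within replicate numbers (correlations of -0.12, 0.04 and -0.11), so the numbers were not taken as pairs, and the replicate block kept 7 members called. Depth limits TSPAN1 and TSPAN8, with at most 20.5 counts in any sample. No test here separates the target's loss from other effects of the 1 siRNA.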

Other observations

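ADAM10, the partner of TSPAN15, cuts several surface proteins, and 5 genes of its substrates were looked at. Of these, 4 passed the test as higher after knock-down and 0 as lower, with a median log2 fold change of 1.22, against -0.01 over all genes. Of all genes 75.6% were called in either direction, and with so few genes the share of 4 in 5 is near that. All 4 were higher, beside 37.1% of all genes called higher. The list is short and was chosen with earlier results of these data known, so no test was made of this share. With GC and length offsets and the replicate block 4 were higher and 1 lower, beside 5120 and 5460 of 13877 genes. Without siControl replicate 1 all 5 were higher, beside 5198 of 13977 genes. NOTCH1, the receptor that ADAM10 cuts on ligand binding, was at 8.04, 8.06 and 8.89 CPM across the control samples and 28.6, 28.0 and 35.0 CPM across the knock-down samples, and the groups did not overlap. It rose 3.69-fold, a log2 fold change of 1.88 ± 0.10 (SE) at an adjusted p of 1.73e-12. CDH1 (E-cadherin) went from 3.39 ± 0.944 CPM in the controls to 8.62 ± 0.957 CPM (SD over 3 samples), a log2 fold change of 1.34. APP, the amyloid precursor protein, went from 788 ± 63.6 CPM in the controls to 1271 ± 61.9 CPM (SD over 3 samples), a log2 change of 0.69. CDH2 (N-cadherin) was at 95.4, 76.4 and 81.6 CPM across the control samples and 80.9, 83.1 and 94.6 CPM across the knock-down samples, with a log2 fold change of 0.03 (95% interval -0.12 to 0.18) that did not pass and turned to -0.07 with the library size alone and -0.12 with GC and length offsets. These are mRNA levels, and shedding was not measured.

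Of the epithelial keratins, KRT8 fell from 1281 ± 66.7 CPM in the controls to 528 ± 22.6 CPM (SD over 3 samples) and KRT18 from 2041 ± 112 CPM in the controls to 1210.3 ± 29.6 CPM (SD over 3 samples). KRT19 fell from 57.6 ± 5.44 CPM in the controls to 35.9 ± 0.872 CPM (SD over 3 samples), a log2 fold change of -0.68 that was -0.44 with GC and length offsets. KRT7 was at 1188, 1284 and 1309 CPM across the control samples and 1321, 1266 and 1218 CPM across the knock-down samples, with a log2 fold change of 0.01 (adjusted p = 0.876 in edgeR's quasi-likelihood test). For KRT7 it was -0.10 with the library size alone, and it was 0.22 and passed with GC and length offsets.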
